A study of Mus musculus with 37 samples.

Results

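Resident macrophages of the heart are long-lived phagocytes that clear debris and dying cells, and many carry scavenger receptors that let them take up ligands from the tissue and the blood. The 10 genes described here, Retnla, Mrc1, Cd163, Lyve1, Timd4, Folr2, F13a1, Cbr2, Clec10a and Gas6, are used as markers of these cells. They were chosen by name after measured values of these samples had been seen, Retnla because it was among the largest falls in Arrest hearts at 1 day against Naïve hearts, and they are 10 of the 56748 genes in the table of expression values. The values of that contrast are therefore given as a description, with no test. Each symbol matched 1 row of the table.

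Left ventricular RNA was sequenced in bulk in 37 libraries from young adult male and female C57BL/6J mice. Naïve mice (5 libraries) were anaesthetised with isoflurane and received no injection. Adr mice, called sham in the sample labels, were anaesthetised, intubated and given saline and then adrenaline into the left ventricle. Arrest mice were given potassium chloride to stop the heart and were resuscitated with the same adrenaline and chest compressions. Adr and Arrest hearts were collected on days 0.5, 1, 3 and 7, with 4 libraries in each of these 8 groups, so both arms had anaesthesia, ventilation, intraventricular injection and adrenaline in common. The apex, where the needle entered, was discarded.

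Expression is given as FPKM, the fragments counted on a gene per kilobase of its length, divided by a scale factor of the library. That factor was not the library's total of fragments on genes. Libraries held 13197037 to 30179901 fragments on genes, which put a median of 110 fragments on Retnla, 69 on Folr2 and 82 on Timd4, but 3124 on Gas6. A single library stood apart, replicate 3 of Adr at 3 days. Mitochondrial genes took 9.36% of its fragments against 20.76 to 30.93% in the other libraries, its 8 cardiomyocyte markers summed to 3790 FPKM while the other replicates of that group had 8650 to 15400 FPKM, and the macrophage genes Adgre1 and Csf1r stood at 44.2 and 33.7 FPKM. The study excluded a poor-quality Adr sample at 3 days without saying which, so group means and differences from Naïve that are printed for that group are given with and without this library.

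Of the 10 genes, Retnla encodes a secreted resistin-like protein that macrophages make under interleukin-4 and interleukin-13, which act through the receptor IL-4Rα and the factor STAT6. F13a1 encodes the A subunit of the cross-linking coagulation factor XIII, and Gas6 a bridging ligand that ties dying cells to the receptors AXL, MERTK and TYRO3. Cd163 takes up haemoglobin bound to haptoglobin, Mrc1 is the mannose receptor, Lyve1 a hyaluronan receptor shared with lymphatic endothelium, Timd4 a phosphatidylserine receptor, Folr2 a folate receptor and Clec10a a galactose-binding lectin. Cbr2 is a carbonyl reductase.

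Retnla and Cd163 lay at the 2 ends of the response, and their promoters are shown for that reason. Of the 10 genes, 8 had an entry in the RefSeq promoter table (build GRCm38.p6). No entry was found for Lyve1 and Clec10a. The 250 bases before the annotated start are printed, 5′ to 3′ on the gene's own strand, from chr16:48842359-48842608 (+) for Retnla and chr6:124304401-124304650 (+) for Cd163. Capitals mark TTCNNNNGAA, the spaced palindrome that STAT6 favours, in Retnla, and AGAACA on the reverse strand, an arm of the glucocorticoid receptor's binding sequence, in Cd163.
Retnla: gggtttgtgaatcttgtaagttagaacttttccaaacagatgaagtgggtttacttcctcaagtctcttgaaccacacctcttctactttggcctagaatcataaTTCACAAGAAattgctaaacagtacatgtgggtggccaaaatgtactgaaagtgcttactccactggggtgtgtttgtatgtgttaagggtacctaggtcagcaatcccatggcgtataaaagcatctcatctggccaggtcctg
Cd163: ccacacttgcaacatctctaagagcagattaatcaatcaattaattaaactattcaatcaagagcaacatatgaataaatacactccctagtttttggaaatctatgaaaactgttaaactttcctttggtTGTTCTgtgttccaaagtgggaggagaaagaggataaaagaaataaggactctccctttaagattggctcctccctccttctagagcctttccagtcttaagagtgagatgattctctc
Both strands were searched. TTCNNNNGAA was found in Retnla and in none of the other 7 genes with an entry, while 5.85% of the 32851 promoters in the table hold it in a window of the same length. AGAACA was found in Cd163 and in 1 of the 2 Folr2 promoters, against 16.1% of all promoters. The C/EBP-type letters TTNCNNAA occurred 3 times in the Retnla window, none of them overlapping the STAT6-type match, and were also found in Cd163, Mrc1, F13a1 and Gas6, against 36.8% of all promoters. GAGGAA, letters bound by PU.1, overlapped one of these matches in Retnla and was also found in Mrc1, F13a1 and Cbr2, against 23.3% of all promoters. These are matches of letters, and binding was not measured.

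Retnla (ENSMUSG00000061100) was the gene with the widest range, from 0.899 to 39.1 FPKM. In Naïve hearts it stood at 21.02, 29.64, 39.13, 27.01 and 17.0 FPKM. In Arrest hearts it stood at 8.10, 6.81, 6.45 and 11.9 FPKM at 0.5 days and at 5.23, 4.75, 3.49 and 12.2 FPKM at 1 day. Every library of these early Arrest groups was below the lowest Naïve library. At 3 days the values were 0.899, 8.95, 10.7 and 13.6 FPKM, the first of them resting on 8 fragments, and at 7 days 6.77, 17.1, 11.7 and 15.3 FPKM. The 3-day group still lay wholly below Naïve, whereas at 7 days 1 library of 4 was above the lowest Naïve value. How many of all genes lie wholly apart from Naïve was not counted, so such separations are a description only for each of the 10 genes.

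Hearts that had received adrenaline without arrest showed a like pattern of Retnla levels. The Adr values were 7.68, 15.7, 5.02 and 12.1 FPKM at 0.5 days and 3.63, 13.7, 17.0 and 3.63 FPKM at 1 day, all of them below Naïve but spread more widely than in Arrest. At 3 days replicates 1 to 4 stood at 27.0, 6.24, 5.88 and 7.32 FPKM, so that 1 library was within the Naïve range, and at 7 days the values were close together at 13.8, 15.0, 14.5 and 12.2 FPKM. In all, 30 of the 32 Adr and Arrest libraries were below the lowest Naïve library and 0 above the highest, or 29 of 31 without replicate 3 of Adr at 3 days. That tally includes Arrest at 1 day, in the contrast that singled the gene out. All libraries were set against the same 5 Naïve libraries, which that contrast used, so the tally is a description only.

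**Figure D1:**
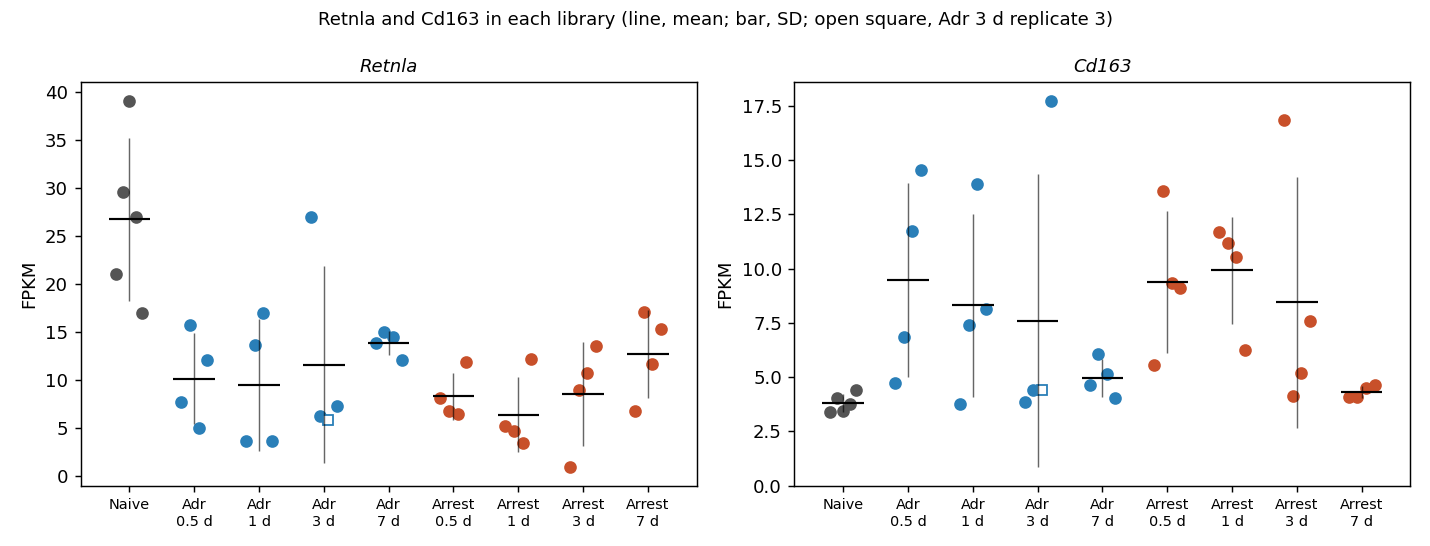
Retnla (left) and Cd163 (right) in FPKM, with 1 point per library in the 9 groups, black lines for group means, bars for SD and an open square for replicate 3 of Adr at 3 days. Retnla libraries of Adr and Arrest lie below the Naïve libraries except for 1 at 3 days in Adr and 1 at 7 days in Arrest, and no Cd163 library lies below the lowest Naïve library.

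By group mean, Retnla was highest in Naïve at 26.8 ± 8.51 FPKM (SD, n = 5). The other groups followed in the order Adr at 7 days (13.9 ± 1.23, SD, n = 4), Arrest at 7 days (12.7 ± 4.56), Adr at 3 days (11.6 ± 10.3, or 13.5 ± 11.7 without replicate 3), Adr at 0.5 days (10.1 ± 4.74), Adr at 1 day (9.48 ± 6.89), Arrest at 3 days (8.53 ± 5.43), Arrest at 0.5 days (8.30 ± 2.47) and Arrest at 1 day (6.42 ± 3.93). Neighbours among these 8 groups differed by less than their SD. The lowest mean was 0.24 times that of Naïve.

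Differences from Naïve were tested with limma on log2(FPKM + 1) over all 16530 genes that passed a filter of 0.5 FPKM in 4 libraries, a filter that all 10 genes passed. A difference was called at a Benjamini-Hochberg adjusted p below 0.05. Values are differences of log2(FPKM + 1), which understate the change of genes at low FPKM, and p-values measure the spread between these libraries. In Arrest, Retnla was lower than in Naïve by 1.56 (difference -1.56, SE 0.48, limma adjusted p = 0.0663) at 0.5 days, with a difference of -1.82 (SE 0.48, adjusted p = 0.0937) at 3 days and -1.03 (SE 0.48, adjusted p = 0.966) at 7 days. None of these passed. Without replicate 1, which held the 8 fragments, the 3-day difference was -1.16. At 1 day, the contrast that singled the gene out, the difference was -1.98 (SE 0.48). In Adr the differences were -1.37, -1.62, -1.36 and -0.85 on days 0.5, 1, 3 and 7 (SE 0.48 each, limma adjusted p = 0.187, 0.096, 0.211 and 0.858), and -1.17 at 3 days without replicate 3. The 8 estimates share the same 5 Naïve libraries, which were also in the contrast that singled Retnla out. The p-values of Retnla against Naïve are therefore a description only. Fitted with Naïve alone, Arrest at 0.5 days passed (limma adjusted p = 0.0106). Tested on recovered fragments with voom, Adr at 1 day passed (limma adjusted p = 0.0434) while Arrest at 0.5 days fell just short of the threshold (0.05 after rounding). The shares of all genes called in those fits are not given, so nothing is read from them. Retnla is short (599 bases), and the median difference of the 4134 shortest genes tested (up to 1637 bases) was 0.14 in Arrest at 0.5 days and 0.13 in Adr at 1 day. The part of gene length in the Retnla values was not tested.

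Across the 10 genes, 0 were called in Adr at 0.5 days (0.188% of all genes tested were called there), 0 at 1 day (0.69%), 0 at 3 days (0%) and 0 at 7 days (0%). In Arrest, 0 of 10 were called at 0.5 days (3.21% of all genes), 0 at 3 days (0.139%) and 0 at 7 days (0%). At 1 day, 2 of 10 had an adjusted p below 0.05, Retnla and Cd163, against 7.11% of all genes, a contrast from which nothing is read because it was used in choosing. Without replicate 3 of Arrest at 1 day that count was 0. Where a count over all genes was 0, the genes with an unadjusted p under 0.05 numbered 2295 in Adr at 3 days, 1017 in Adr at 7 days and 852 in Arrest at 7 days. Voom called 1 of the 10 in Adr at 1 day, and fits of only the compared groups called 2 of them, Cd163 and Retnla, in Arrest at 0.5 days. The shares of all genes called in those fits are not given, so nothing is read from these counts.

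**Figure D2:**
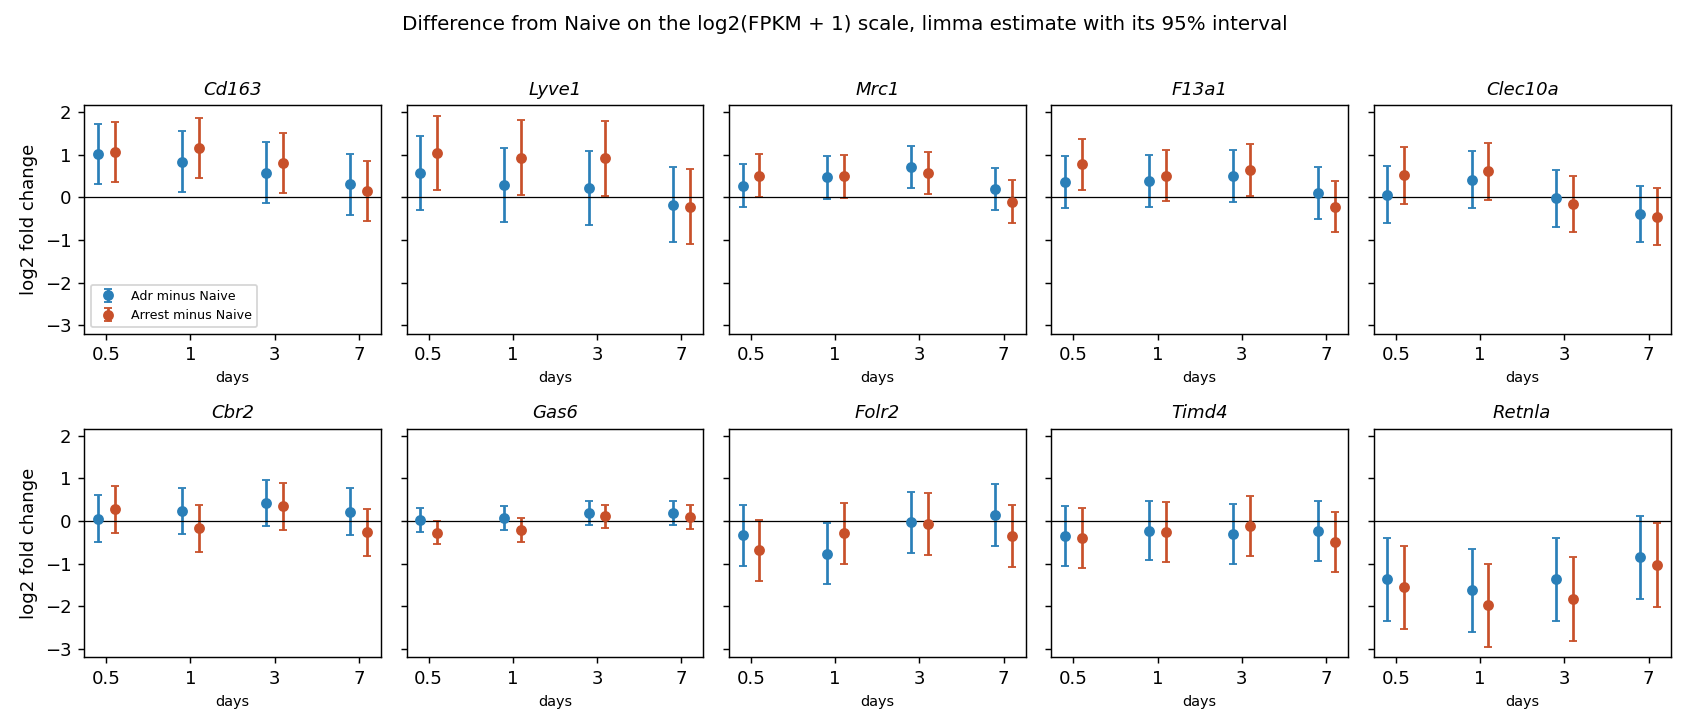
Difference from Naïve on the log2(FPKM + 1) scale for each gene, with time in days on the horizontal axis (evenly spaced), Adr in blue, Arrest in orange, points for the limma estimate and bars for its 95% interval. Retnla estimates run from -1.98 to -0.85, Cd163 estimates from 0.15 to 1.15, and Timd4 estimates from -0.48 to -0.12.

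Among the uptake receptors, Cd163 (ENSMUSG00000008845) stood at 3.38, 4.06, 3.46, 3.76 and 4.42 FPKM in Naïve hearts, and no other library was lower than the lowest of these. Arrest libraries held 5.58, 13.6, 9.35 and 9.10 FPKM at 0.5 days, all above the highest Naïve library, and 11.7, 11.2, 10.5 and 6.27 FPKM at 1 day. At 3 days the values were 16.8, 4.15, 5.20 and 7.60 FPKM, so that the group overlapped Naïve, and at 7 days they were within 4.07 to 4.62 FPKM. In Adr hearts the values were 4.73, 6.86, 11.7 and 14.6 FPKM at 0.5 days, again above all Naïve libraries, and 3.76, 7.39, 13.9 and 8.15 FPKM at 1 day. Adr replicate 4 at 3 days held 17.7 FPKM, the highest of all libraries, against 3.84, 4.41 and 4.43 FPKM in the others, and at 7 days the range was 4.05 to 6.08 FPKM. Cd163 exceeded every Naïve library in 25 of 32 Adr and Arrest libraries.

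The difference of Cd163 from Naïve was 1.06 (SE 0.35, limma adjusted p = 0.0857) in Arrest at 0.5 days, 0.80 (adjusted p = 0.291) at 3 days and 0.15 (adjusted p = 1) at 7 days, with 1.15 at 1 day in the contrast used for choosing. In Adr it was 1.02, 0.84, 0.58 and 0.30 on days 0.5, 1, 3 and 7 (SE 0.35, limma adjusted p = 0.182, 0.246, 0.454 and 0.987), and 0.72 at 3 days without replicate 3. Outside the contrast used for choosing, none passed in the fit of all groups. Without replicate 4, the Adr difference at 3 days was 0.12, and without replicate 1 the Arrest difference at 3 days was 0.44. Fitted with Naïve alone, Arrest at 0.5 days passed (limma adjusted p = 0.0251). The share of all genes called in that fit is not given, so nothing is read from it.

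Lyve1 (ENSMUSG00000030787) stood at 15.6, 13.8, 24.4, 24.3 and 11.4 FPKM in Naïve hearts. In Arrest it stood at 27.7, 59.2, 35.2 and 29.6 FPKM at 0.5 days and at 36.6, 35.0, 27.7 and 35.9 FPKM at 1 day, with no overlap with Naïve at either time. How many of all genes separate in this manner was not counted, and 3002 of them had an unadjusted limma p under 0.05 in Arrest at 0.5 days. Replicate 1 of Arrest at 3 days held 129 FPKM, far above the 17.1, 20.1 and 26.4 FPKM of the other replicates. This library was also the highest of its group for Cd163 and F13a1 and the lowest for Retnla. By 7 days Arrest libraries were at 11.9 to 19.0 FPKM, within the Naïve range. The difference from Naïve was 1.03 (SE 0.43, limma adjusted p = 0.185) at 0.5 days, 0.93 at 1 day, 0.91 (adjusted p = 0.339) at 3 days and -0.22 (adjusted p = 1) at 7 days. In Adr hearts Lyve1 ranged from 11.7 to 54.8 FPKM and overlapped Naïve at every time, with differences of 0.57, 0.29, 0.21 and -0.17. The difference of Adr at 3 days was 0.46 without replicate 3 and -0.25 without replicate 4, which held the 54.8 FPKM. That of Arrest at 3 days was 0.27 without replicate 1.

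As Lyve1 also marks lymphatic endothelium, a list of 7 lymphatic markers was looked at, which includes Lyve1 itself. Prox1, a master factor of lymphatic endothelium that cardiomyocytes also express, fell in Arrest at 0.5 days, with a median of 3.83 FPKM in 4 libraries against 7.44 FPKM in the 5 Naïve libraries (difference -0.93, limma adjusted p = 0.0053), and Pdpn, a membrane glycoprotein of lymphatic endothelium, rose by 1.40 (adjusted p = 0.0342). The other 5 of 7 lymphatic markers, Lyve1 among them, did not pass. The summed level of the list was 72.5 to 155 FPKM in that group against 74.3 to 145 FPKM in Naïve. Lyve1 itself held 27.7 to 59.2 FPKM of it in that group and 11.4 to 24.4 FPKM in Naïve, and a sum without Lyve1 was not taken. The part of lymphatic endothelium in the Lyve1 values was not tested. In bulk tissue, fewer cells of a type cannot be told apart from less RNA per cell, and this holds for each gene described here.

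Mrc1 (ENSMUSG00000026712) lay in a narrow Naïve range of 7.11 to 8.36 FPKM. All 4 libraries of Arrest at 0.5 days (9.33 to 13.4 FPKM), at 1 day (8.41 to 13.7 FPKM) and at 3 days (8.65 to 16.7 FPKM) were above that range, and 3 of 4 Adr libraries were at 1 day. At 7 days Arrest libraries were at 6.70 to 7.51 FPKM, and 2 of them were below every Naïve library. The differences were 0.50 (SE 0.25, limma adjusted p = 0.274) at 0.5 days, 0.57 (adjusted p = 0.291) at 3 days and -0.10 (adjusted p = 1) at 7 days in Arrest. For Adr at 3 days the difference was 0.71 (adjusted p = 0.21) with replicate 3, at 27.2 FPKM the highest Mrc1 value of the series. The mean of that group was 1.96 times that of Naïve with this library and 1.43 times without it, where the difference was 0.38.

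Clec10a (ENSMUSG00000000318) was low, with 1.54 to 4.72 FPKM in Naïve hearts. Its highest means were those of Arrest at 1 day (4.30 ± 1.49 FPKM, SD, n = 4) and 0.5 days (4.22 ± 2.55 FPKM) and its lowest those of Adr (1.64 ± 0.70 FPKM) and Arrest (1.57 ± 0.96 FPKM) at 7 days. Libraries overlapped those of Naïve at all 8 time points. Differences from Naïve ran from -0.45 in Arrest at 7 days to 0.51 (limma adjusted p = 0.424) at 0.5 days, and to 0.61 in Arrest at 1 day.

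Folr2 (ENSMUSG00000032725) varied from 2.32 to 8.89 FPKM among the Naïve libraries alone, and no other library was higher than the highest of them. Means were lowest in Adr at 1 day (2.28 ± 1.39 FPKM, SD, n = 4) and Arrest at 0.5 days (2.41 ± 1.14 FPKM), against 4.72 ± 2.73 FPKM (SD, n = 5) in Naïve, and the differences there were -0.76 (SE 0.35, limma adjusted p = 0.301) and -0.69 (SE 0.35, adjusted p = 0.301). Both groups overlapped Naïve. Timd4 (ENSMUSG00000055546) had its highest mean in Naïve (2.94 ± 0.69 FPKM) and differences between -0.48 and -0.12 in all 8 groups, with an SE of 0.34. The difference in Adr at 3 days was -0.31, or -0.08 without replicate 3. Of its 32 Adr and Arrest libraries, 17 were below every Naïve library and 3 above.

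F13a1 (ENSMUSG00000039109), a secreted member with Retnla and Gas6, stood at 10.1, 8.56, 14.1, 16.1 and 17.1 FPKM in Naïve hearts. Its 4 Arrest libraries at 0.5 days held 19.5, 24.1, 22.4 and 24.2 FPKM and did not overlap Naïve. The difference there was 0.77 (SE 0.30, limma adjusted p = 0.152). At 7 days Arrest hearts were back at 6.84, 11.8, 14.5 and 11.7 FPKM. In Adr hearts all times overlapped Naïve, with differences of 0.35, 0.39, 0.49 and 0.11, the 3-day value being 0.44 without replicate 3 and 0.14 without replicate 4.

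Gas6 (ENSMUSG00000031451) was the most abundant of the 10 per unit length and the steadiest, from 60.4 to 110 FPKM over all libraries. Naïve libraries held 80.4, 77.2, 78.5, 89.6 and 73.3 FPKM. In Arrest at 0.5 days the values were 65.9, 60.4, 73.3 and 64.9 FPKM, the highest of them just under the lowest Naïve library, and the difference was -0.27 (SE 0.14, limma adjusted p = 0.3). By 3 and 7 days Arrest libraries were at 72.1 to 99.4 and 75.2 to 109 FPKM. Adr libraries at 0.5 days held 69.6 to 101 FPKM, 1 of 4 of them below every Naïve library, and the difference was 0.03. Arrest minus Adr at 0.5 days was -0.30 (95% interval -0.59 to -0.00188, adjusted p = 1).

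Cbr2 (ENSMUSG00000025150), the enzyme, had means from 26.7 ± 4.21 FPKM (SD, n = 4) in Arrest at 7 days to 44.9 ± 14.3 FPKM in Adr at 3 days, or 42.0 ± 16.1 FPKM without replicate 3, which is below the 43.5 FPKM of Arrest at 3 days, with 32.5 ± 7.08 FPKM (SD, n = 5) in Naïve. Every group overlapped Naïve. Differences ran from -0.26 to 0.43 with SE of 0.27, the last that of Adr at 3 days, which was 0.33 without replicate 3.

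**Figure D3:**
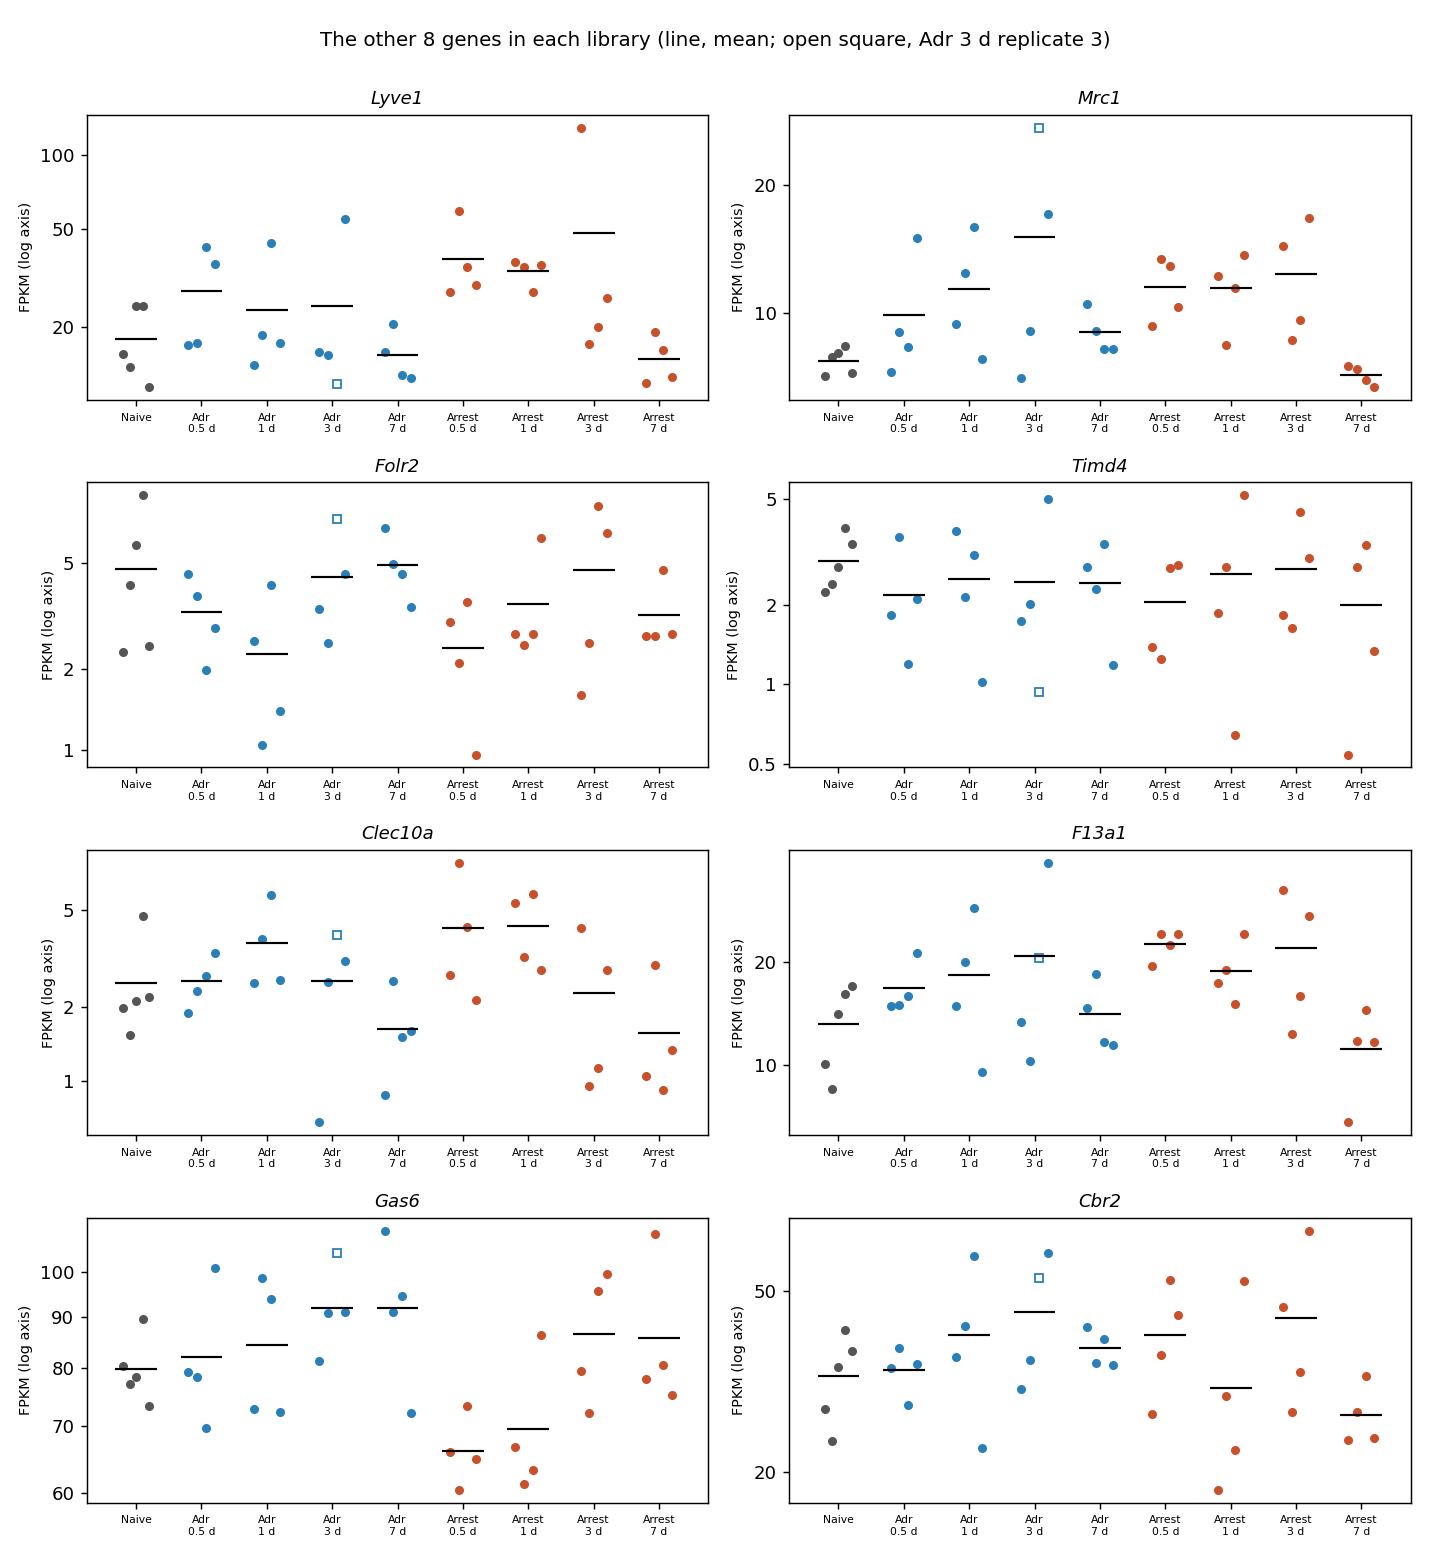
FPKM on a log axis for the other 8 genes, with 1 point per library in the 9 groups, black lines for group means and an open square for replicate 3 of Adr at 3 days. Lyve1 and F13a1 libraries of Arrest at 0.5 days lie above all Naïve libraries, and 1 Arrest library at 3 days reaches 129 FPKM for Lyve1.

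Arrest and Adr hearts were compared directly at the same time to ask what arrest adds to adrenaline. None of the 10 genes was called at 0.5 days (0 of 10, 0% of all genes), 1 day (0 of 10, 0%), 3 days (0 of 10, 0%) or 7 days (0 of 10, 0.00605%), and 638, 1090, 888 and 416 of all genes had an unadjusted p under 0.05. For Retnla the difference of Arrest from Adr was -0.19, -0.35, -0.46 and -0.18 on days 0.5, 1, 3 and 7, with 95% intervals from -1.22 to 0.84, -1.39 to 0.68, -1.49 to 0.57 and -1.21 to 0.85 (limma adjusted p = 1, 0.925, 0.939 and 1). Retnla levels in Arrest well below or somewhat above those in Adr would both lie within those intervals. Without replicate 1 of Arrest at 3 days the 3-day difference was 0.20. For Cd163 the intervals were -0.71 to 0.79 at 0.5 days and -0.44 to 1.06 at 1 day, and for Lyve1 -0.46 to 1.39 and -0.28 to 1.56.

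Recovery over time was compared as 7 days minus 0.5 days within each arm. In Arrest, F13a1 was lower at 7 days by 0.99 (difference -0.99, SE 0.31, limma adjusted p = 0.171), Lyve1 by 1.25 (difference -1.25, SE 0.45, adjusted p = 0.241), Clec10a by 0.97 (difference -0.97, SE 0.34, adjusted p = 0.234) and Cd163 by 0.91 (difference -0.91, SE 0.37, adjusted p = 0.303). Retnla was higher by 0.53 (SE 0.51, adjusted p = 0.771). None passed (0 of 10, 0.381% of all genes). For F13a1, Lyve1, Cd163 and Mrc1 all 4 libraries at 7 days lay below all 4 at 0.5 days, and for Gas6 all 4 lay above. How many of all genes separate in this way was not counted. F13a1 and Lyve1 passed with sample quality weights (limma adjusted p = 0.031 and 0.037) and in a fit of only these groups (0.0417 and 0.0377). The shares of all genes called in those fits are not given, so nothing is read from them. In Adr, 0 of 10 passed (0.00605% of all genes), with -0.71 for Cd163, -0.74 for Lyve1 and 0.52 for Retnla.

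The genes did not vary together as a single set. Over the 36 libraries other than replicate 3 of Adr at 3 days, Cd163, Lyve1, Mrc1, F13a1 and Clec10a had Pearson correlations of log2(FPKM + 1) between 0.56 and 0.84 with one another. Over all 37 libraries the range was 0.49 to 0.84, Lyve1 and Mrc1 going from 0.72 to 0.49 and Cd163 and Mrc1 from 0.75 to 0.56. Retnla had negative values with each of those, from -0.54 with Cd163 to -0.23 with F13a1, and positive ones with Folr2 (0.46), Gas6 (0.40) and Timd4 (0.34). Measured as deviations from group means, which removes the groups' own differences, Cd163 and Lyve1 stood at 0.82, Mrc1 and F13a1 at 0.73, and Retnla and Folr2 at 0.44. On that measure Retnla had -0.28 with Cd163, -0.27 with Lyve1 and -0.24 with Clec10a, but 0.09 with Mrc1 and 0.10 with F13a1. These values describe libraries that share group, depth and tissue composition, and no p is given.

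**Figure D4:**
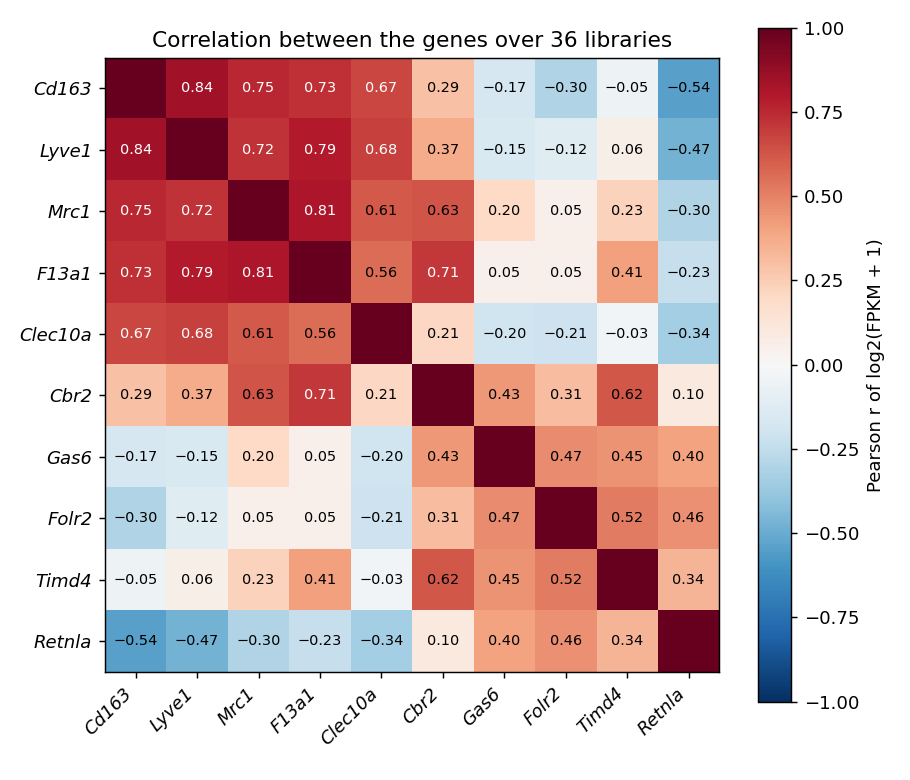
Pearson correlation of log2(FPKM + 1) between each pair of the 10 genes over 36 libraries, from blue (-1) to red (1). Cd163, Lyve1, Mrc1, F13a1 and Clec10a form a red block with values of 0.56 to 0.84, and the Retnla row is blue against that block and light red against Gas6, Folr2 and Timd4.

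The genes whose pattern was most like that of each member were taken as the 5 highest Pearson correlations over those 36 libraries, among 11548 other genes with a mean of at least 1 FPKM. For Cd163 they were Galnt15 (0.90), Fkbp5 (0.88), Slc43a3 (0.88), Cyp1b1 (0.88) and Serinc3 (0.87), and for Lyve1 Ecm1 (0.86), Serinc3 (0.85), Slc43a3 (0.84), Cd163 (0.84) and Spock2 (0.84). Mrc1 was nearest to Tlr13, Ms4a6b, Ms4a6d, Arpc1b and Fcgr2b (0.83 to 0.86), several of them myeloid genes, and F13a1 to Gda, Ecm1, Ccl6, Mrc1 and Clec5a (0.80 to 0.85). Gas6 was nearest to Dpt (0.79), Rcn3, Stab1, Igf1 and Sft2d2, of which Dpt is a gene of fibroblasts. The Retnla pattern was shared less closely, with Larp4b (0.76), Kif21a (0.76), Ralgapa2, Nacc2 and Dst (0.72 each) nearest to it. Clec10a was nearest to Lbp, Cyb561, Tcn2, Ammecr1 and Adam15 (0.74 to 0.76), and Cbr2 to Ssr1, Dab2, Emilin1, Clec5a and F13a1 (0.71 to 0.74). Folr2 (Naa60, 0.70) and Timd4 (Slamf9, 0.66) had no gene closer than that. With all 37 libraries, the nearest gene was the same for Cd163, Folr2, Retnla, F13a1 and Gas6.

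The level of RNA of macrophages and other leukocytes was followed with 18 genes listed as pan-macrophage, among them Adgre1 and Csf1r. Their mean log2(FPKM + 1) was 3.35 ± 0.16 (SD, n = 5) in Naïve and 3.51, 3.68, 4.10 and 3.50 in Adr and 3.66, 3.50, 3.93 and 3.23 in Arrest on days 0.5, 1, 3 and 7. Without replicate 3 the Adr mean at 3 days was 3.56 ± 0.24 (SD, n = 3). Of the 18 genes, 0 were called in any of the 14 comparisons, and in Arrest at 0.5 days 14 of the 18 were higher than in Naïve, with a median difference of 0.31 against 0.03 over all genes. Set against this mean in each library, Retnla was 1.39 ± 0.47 above it in Naïve and 0.48 ± 0.39 below it (mean -0.475) in Arrest at 0.5 days, a change of -1.86, and the change was -1.53 in Adr at 0.5 days and -2.40 in Arrest at 3 days. In Arrest at 3 days the SD was 1.279, and replicate 1, with 8 fragments on Retnla, stood lowest at -2.891. The change was smaller at 7 days, -1.001 in Adr and -0.907 in Arrest. Retnla was thus lower than in Naïve also when set against this mean, as a description. The 18 genes include Ptprc and Itgam, which encode CD45 and CD11b, used by the study in marking leukocytes and neutrophils. Their mean is therefore not a level of macrophages alone, and the changes are not changes per macrophage. These changes were not tested, and the part of macrophage number or of other leukocytes in the Retnla values was not tested. Mrc1 changed little on this scale, by 0.20 and 0.11 in Arrest and Adr at 0.5 days, and Cd163 was higher relative to the mean by 0.75 and 0.86. Replicate 3 of Adr at 3 days had the highest mean of the 18 genes of all (5.71) together with only 5.88 FPKM of Retnla.

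**Figure D5:**
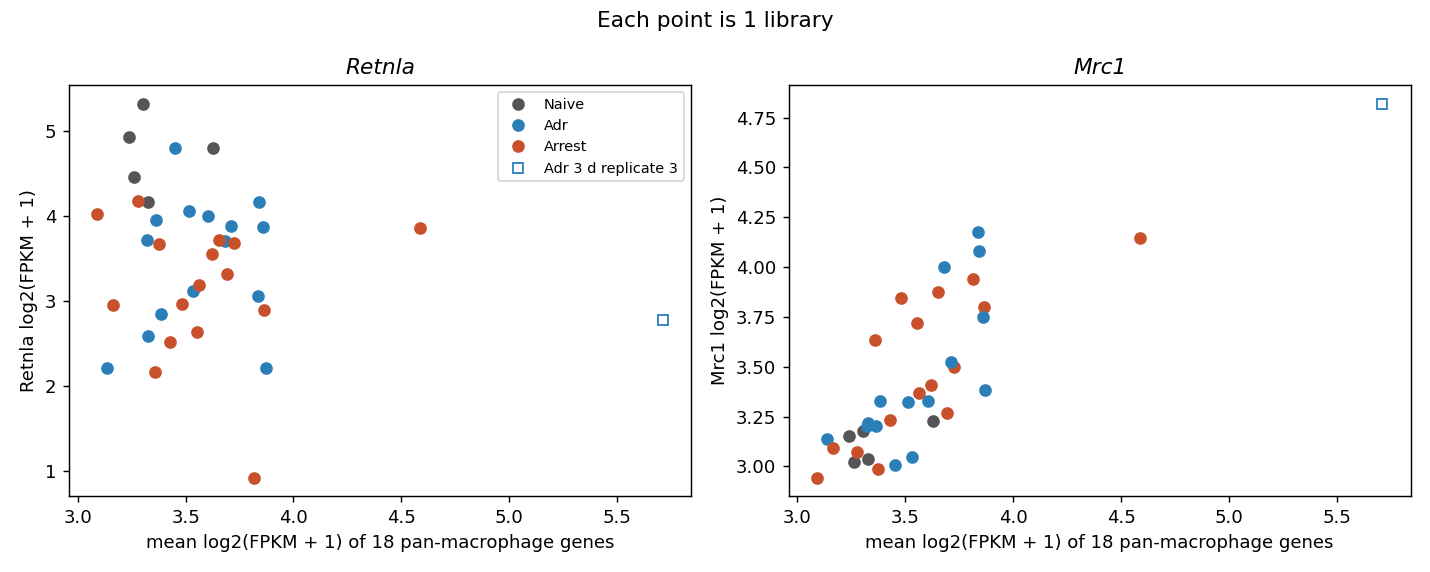
Log2(FPKM + 1) of Retnla (left) and Mrc1 (right) against the mean log2(FPKM + 1) of 18 pan-macrophage genes, with 1 point per library, grey for Naïve, blue for Adr, orange for Arrest and an open square for replicate 3 of Adr at 3 days. Mrc1 is higher in libraries where the mean of the 18 genes is higher. Retnla has its highest group mean in Naïve, whose libraries lie between 3.24 and 3.63 on the horizontal axis. For Retnla, 1 library of Adr at 3 days and 1 of Arrest at 7 days lie within the Naïve range.

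Signals and receptors around these genes were taken from lists of the pathways. On the side of Retnla, Il4ra, the receptor chain shared by interleukin-4 and interleukin-13, rose in Arrest at 0.5 days, where it averaged 12.8 ± 2.76 FPKM (SD, n = 4) against a Naïve mean of 2.97 ± 0.56 FPKM (SD, n = 5), a difference of 1.79 (SE 0.34, limma adjusted p = 0.0038). All 4 Arrest libraries (10.5 to 16.8 FPKM) were above the Naïve libraries (2.23 to 3.69 FPKM). At 7 days Il4ra was back at 3.41 ± 0.48 FPKM, lower than at 0.5 days by 1.63 (difference -1.63, adjusted p = 0.0295). In Adr at 0.5 days it stood at 4.07 to 15.2 FPKM. Arrest and Adr libraries at 0.5 days thus both lay above every Naïve library for Il4ra and below every Naïve library for Retnla. Il4ra was the only gene of the 13 tested on this axis that was called in Arrest at 0.5 days. Il13 was listed at 0 in every library, Il4 was at most 1.89 FPKM, and Stat6 stood at 11.3 to 13.8 FPKM in Naïve and 12.2 to 15.3 FPKM in Arrest at 0.5 days. Arg1 and Chil3, which macrophages also make under interleukin-4, each had a median under 0.5 FPKM over all 37 libraries. Their highest values in Arrest at 0.5 days were 11.1 and 10.5 FPKM, against at most 0.402 FPKM for Arg1 in Naïve, where Chil3 was listed at 0. Neither was called in Arrest at 0.5 days.

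The other resistin-like genes were low. Retn and Retnlg were listed at 0 in all Naïve libraries and Retnlb in every library. Retnlg, a gene of neutrophils, reached 4.89 FPKM in Arrest at 0.5 days. None of the 3 Retnla relatives was called in any comparison. Since Retnla is also made by adipocytes, adipocyte markers were checked, and their summed level was 7.36 to 10.9 FPKM in Naïve and 11.2 to 21.6 FPKM in Arrest at 0.5 days. The defining adipocyte genes Adipoq, Plin1, Lep and Cidec each had a median under 0.5 FPKM.

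Around Cd163, Hmox1, the haem-degrading enzyme, ranged from 4.82 to 8.66 FPKM in Naïve and from 16.1 to 47.8 FPKM in Arrest at 0.5 days, and Hp, haptoglobin, from 0 to 0.879 and from 0.401 to 4.86 FPKM. All 7 genes tested on the haem list were higher than in Naïve in Arrest at 0.5 days (median difference 0.42 against 0.03 over all genes) and 0 were called. Around Gas6, its receptor Axl stood at 24.0 ± 3.37 FPKM in Naïve and 28.0 ± 3.68 FPKM in Arrest at 0.5 days, Mertk at 2.23 ± 0.87 and 3.38 ± 0.43 FPKM, and 0 of the 4 genes of that list were called in any comparison. Csf1r, the receptor on which macrophages depend, had medians of 12.4 FPKM in Naïve and 11.9 FPKM in Arrest at 0.5 days, and 0 of the 3 genes on its list were called.

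Of 18 tested genes on a list of other resident macrophage genes, 0 were called in Arrest at 0.5 days and 10 were higher than in Naïve, with a median difference of 0.02 against 0.03 over all genes. Markers of other blood cells were summed. The level of 12 inflammatory monocyte markers was 82.7 to 110 FPKM in Naïve, 173 to 274 FPKM in Arrest and 137 to 224 FPKM in Adr at 0.5 days, of which Msrb1 accounted for 154 to 175 FPKM in Arrest. Msrb1 was the only call among the 9 monocyte, 6 neutrophil and 5 dendritic cell markers tested in Arrest at 0.5 days. Ly6c2 and Ccr2, which define those monocytes, stood at most at 1.64 and 1.36 FPKM there. Neutrophil markers summed to 0 to 12.2 FPKM in Naïve and 5.71 to 35.9 FPKM in Arrest at 0.5 days, with Ly6g listed at 0 in every library. Dendritic cell markers, looked at because Clec10a is also found on dendritic cells, summed to 3.69 to 7.41 and 3.73 to 6.73 FPKM. The part of these cells in the values of the 10 genes was not tested.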

How the data were processed

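RNA was extracted from the left ventricle, and per the labels and the study's methods the authors checked reads with FastQC, aligned them with HISAT2 and deposited FPKM for 56748 genes in 37 libraries. The genome build of the table is not given in the sources used here, so its coordinates were not printed. FPKM times gene length gave whole fragments for 100% of values above 0 (tolerance 0.01), 13197037 to 30179901 per library. Intervals cover the spread between libraries only.

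The 10 members, the gene lists and the comparisons were chosen with earlier results of these data known. FPKM were scaled by median ratios and log2-transformed with a pseudocount of 1. The median-ratio factor was 1.013 in every library, so this scaling left the libraries as they stood to one another. The 16530 genes that reached 0.5 FPKM in 4 or more libraries entered a limma 3.58.1 fit (R 4.3.3) with 1 mean per group and a mean-variance trend. Benjamini-Hochberg adjustment was over all genes within each of 14 comparisons, two-sided, with a threshold of 0.05. The fit was tested on simulated data. Every member is named. From other lists, the 3 largest calls in each direction at most and defining markers are named, and the values of the genes around Retnla, Cd163 and Gas6 were picked after they were seen. Alternatives were other scalings, pseudocounts, filters, covariates, weights, samples and voom on recovered fragments. Python 3.11.15 drew the figures. No per-sample column was left unused.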

Additional observations from a re-analysis of the deposited data

Results flagged for a closer look

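In each group, the highest and lowest library of each gene were compared with the rest by Dixon's test, and 10 of the 90 gene and group pairs held an outlying library, where chance gives about 1 in 20. All 10 were the highest of their group. In Adr at 3 days, replicate 4 stood apart for Cd163 (17.7 FPKM) and Lyve1 (54.8 FPKM) and replicate 1 for Retnla (27.0 FPKM). Replicate 1 of Arrest at 3 days stood apart for Lyve1 (129 FPKM), and replicate 3 of Adr at 1 day for the same gene (44.0 FPKM). Folr2 was outlying in replicate 4 of Arrest at 1 day (6.18 FPKM) and in replicate 3 of Arrest at 7 days (4.68 FPKM). The remaining values were Clec10a in replicate 4 of Naïve (4.72 FPKM), F13a1 in replicate 4 of Adr at 0.5 days (21.3 FPKM) and Gas6 in replicate 2 of Arrest at 7 days (109 FPKM).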

How the results depend on the processing

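Estimates for Retnla against Naïve were negative under all alternatives at each time in both arms, except in Adr at 3 days with the number in the sample description as a covariate (0.051). That covariate also gave the smallest differences at 1 day, -0.65 in Arrest and -0.72 in Adr, and at 7 days in Adr (-0.38). The labels do not say what that number is. Naïve libraries were numbered 116 to 127, and all libraries of both arms at 1 and 3 days and of Adr at 7 days had lower numbers. Group and number cannot be told apart there. The count of genes called in Arrest at 1 day against Naïve was 2. That contrast was used in choosing, so nothing is read from this count or its changes. Shares of all genes called under the alternatives are not given. The count was 1 with no filter, 1 with a replicate block, 1 with voom and 0 with the description number. It was 3 in a fit of only the compared groups. Leaving out 1 library gave 0 to 2, with 0 without Arrest replicate 3 at 1 day. In that fit of only the compared groups, 2 were also called in Arrest at 0.5 days and 2 in Arrest at 7 against 0.5 days, where sample quality weights also gave 2. Voom called 1 in Adr at 1 day. The replicate block changed no other count. Same-numbered libraries had correlated deviations of -0.28 to 0.24, so the numbers were not taken as pairs.

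Signs turned for Gas6 in Adr at 0.5 days with quantile normalization (-0.11), for Mrc1 in Arrest against Adr at 3 days with sample quality weights (0.17), and with the description number for Timd4 in Adr at 3 days (0.22) and Arrest at 1 day (0.23) and for Cbr2 in Arrest at 1 day (0.11). Leaving out 1 library gave -0.22 to 0.30 for Clec10a and -0.25 to 0.46 for Lyve1 in Adr at 3 days, and -0.42 to 0.19 for Mrc1 and -0.78 to 0.20 for Retnla in Arrest against Adr at 3 days. The cause was not tested. A change of sign within 1 SE of an uncalled value was counted as no change. Libraries were left out only from the groups compared, beside replicate 3 of Adr at 3 days. With 8 to 308 fragments on Retnla, counting error adds to its spread.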
